A study of Drosophila melanogaster with 10 samples.

Results

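Histone chaperones escort histones from their synthesis to DNA and back, and keep free histones from binding where they should not. The 10 genes described here encode the subunits of FACT (Ssrp and dre4), of CAF-1 (Caf1-180, Caf1-105 and Caf1-55) and of the HIRA complex (Hira and yem), together with asf1, Nap1 and Nlp. They were chosen by symbol, as every probe set that the platform annotation names for one of these genes alone, which gave 12 probe sets of 18769 tested and 10 genes of 11982 named genes. Both dre4 and yem had 2 probe sets, and each of these genes is represented by the probe set with the higher mean, with the other given beside it.

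The arrays measured transcripts in Drosophila Kc cells, an embryonic cell line with features of blood cells, and in larval salivary glands, a secretory organ whose nuclei hold polytene chromosomes. Kc cells, kept at 25 °C, were given dsRNA against GFP (2 arrays) or against linker histone H1 (2 arrays) in serum-free medium (1 hour each on day 0, day 2 and day 4) and were harvested on day 6. The series record speaks of a single treatment. The glands came from transgenic flies in which Tub-Gal4, a driver active throughout the animal, expressed RNAi against Nautilus (nau, 3 arrays) or against H1 (3 arrays). All gland donors were crossed at 18 °C and shifted to 29 °C from the embryo on. With this driver the RNAi was directed at the whole larva and not at the gland alone. Larval age, the number of animals behind an array and the independence of the cultures are not given in the labels, so p-values measure the spread between arrays, which may be technical.

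FACT loosens and rebuilds nucleosomes ahead of and behind polymerases. CAF-1 places new histones H3 and H4 on DNA that has just been replicated, and Asf1 hands these histones either to CAF-1 or to HIRA, which places the variant H3.3 outside replication. Nap1 and the nucleoplasmin-like Nlp carry core histones. Gland cells copy their DNA in endocycles without dividing, whereas Kc cells divide.

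All values below are log2 of the deposited intensity unless a fold is stated. Arrays of a group correlated with r of 0.9983 in both Kc groups and from 0.9886 to 0.9937 in glands, and the gland arrays spread more widely, with a pooled SD of 0.238 (nau) and 0.263 (H1) against 0.114 (GFP) and 0.117 (H1) for Kc cells. Depletion of H1 itself could not be checked, since 0 of the probe sets used here carry a His1 symbol. The nau transcript averaged 5.68 ± 0.29 (SD, n = 3) where the glands were labelled nau RNAi and 3.47 ± 0.10 (SD, n = 3) where they were labelled H1 RNAi, which is opposite to a depletion of nau, so each gland direction refers to the labels. As a check of the labelled systems, the 8 measured gland markers summed to an intensity of 101358 to 106535 in the nau glands, to 328 to 329 in GFP-treated Kc cells, where Sgs3 and Sgs4 lay at background, and to 416 to 429 in Kc cells with H1 RNAi, where sage, a gland transcription factor gene, was higher (7.82 against 7.13, adjusted p = 0.00738). The haemocyte markers disagreed in Kc cells: Hml averaged 12.23 in the GFP group, while NimC1 (3.62) and PPO1 (3.59) lay next to background. Gland H1 array a stood apart in neuronal and glial genes. It read 7.78 for the neuronal gene elav, 7.38 for Appl and 5.83 for the glial gene repo. Arrays b and c read 5.41 and 5.68, 5.13 and 5.42, and 3.42 and 3.99, so the gland results are also given without array a. The H1 gland arrays were uneven in other markers too. Array c read 5.15 for Sgs3, against 9.87 and 11.39 in arrays a and b, though the gland marker sums were 21726, 24198 and 22821 in arrays a, b and c. The haemocyte marker sums were 3734, 3602 and 4274. The 12 chaperone probe sets lay above the background level of 3.55, the 95th percentile of control probe sets that match no fly transcript, on each of the 10 arrays.

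**Figure D1:**
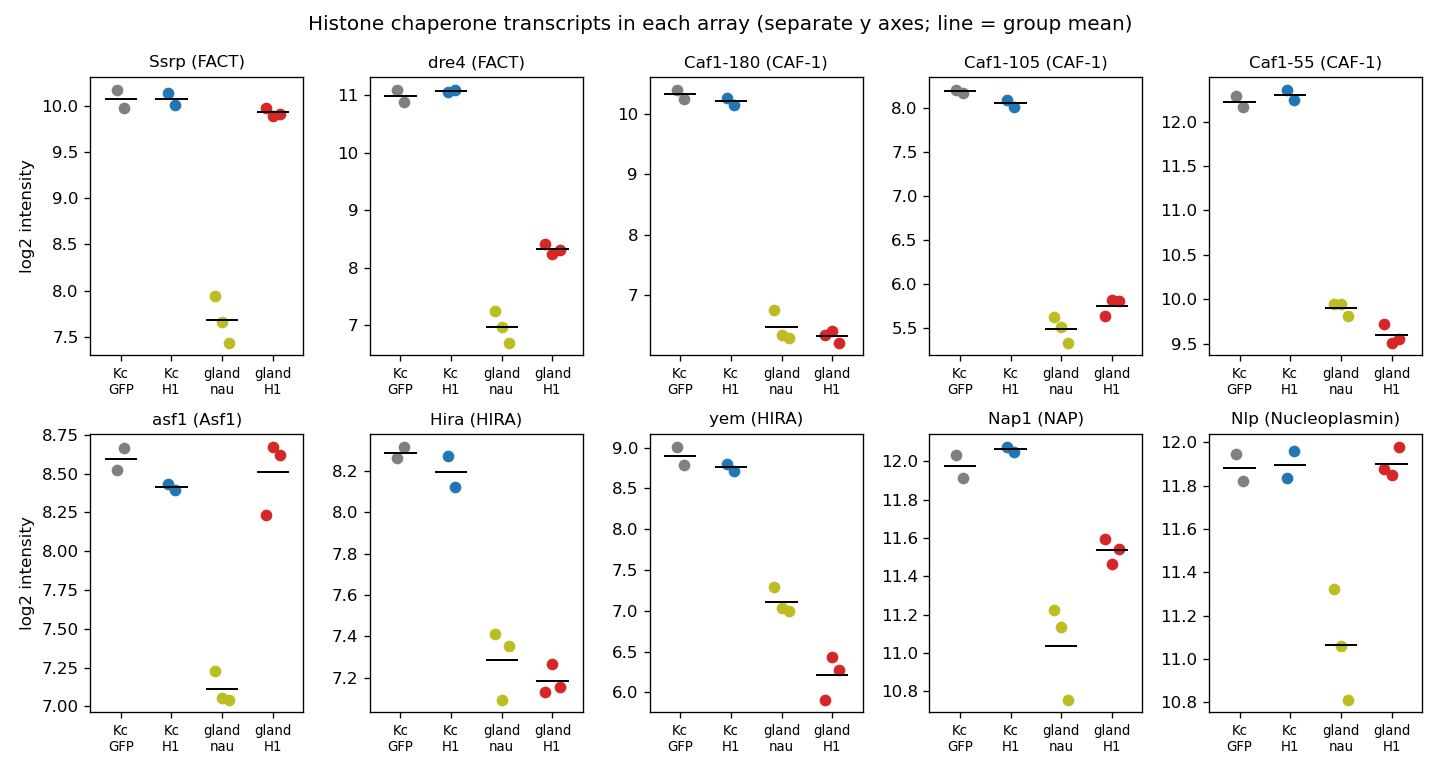
Log2 intensity of the 10 histone chaperone genes, 1 panel per gene with its own y axis, 1 point per array and a line at each group mean. The Kc arrays of both RNAi groups lie together in each panel, while Ssrp, dre4, asf1, Nap1 and Nlp are higher and yem is lower in the H1 glands (n = 3) than in the nau glands (n = 3).

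In salivary glands, H1 RNAi went with higher transcript levels of both FACT subunits, of asf1, of Nlp and of Nap1, and with a lower level of yem. The largest change was that of Ssrp, 4.77-fold. Of the 10 genes 6 rose, 2 fell and 2 did not pass the test at an adjusted p of 0.05, against 23.6% of the named genes in each direction. The median log2 change was 0.38 over the chaperone genes and -0.04 over the named genes. The H1 and nau arrays did not overlap for 8 of the 10 genes, with the H1 arrays higher for 6 and lower for 2, while such separation was found for 25.9% of the named genes upward and 28.8% downward. Without gland H1 array a, again 6 genes rose and 2 fell. Ssrp then changed by 2.23, dre4 by 1.31, asf1 by 1.54, Nlp by 0.85, Nap1 by 0.47 and yem by -0.75. Gland standard errors and adjusted p-values rest on a spread estimated jointly with the Kc arrays, which varied less. They may therefore be too small, and the gland intervals too narrow.

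Ssrp encodes the smaller FACT subunit, which carries an HMG box that binds DNA. Its level in the nau glands was 7.94, 7.66 and 7.43 in arrays a, b and c, and in the H1 glands 9.98, 9.90 and 9.92. Every H1 array lay about 2 log2 units or more above every nau array. The log2 change was 2.25 (standard error 0.124, limma adjusted p = 6.82e-07), which placed Ssrp at rank 335 from the top among the 11982 named genes.

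The partner subunit of FACT, the Spt16 protein, is encoded by dre4. It read 7.24, 6.97 and 6.70 in the nau glands and 8.42, 8.25 and 8.31 in the H1 glands, with no overlap. The log2 change was 1.36 (standard error 0.132, adjusted p = 2.76e-05), a 2.56-fold increase. The other dre4 probe set gave a different size, with 7.14, 7.20 and 6.64 in the nau glands against 7.17, 7.50 and 7.50 in the H1 glands. Its groups overlapped, and its log2 change of 0.40 (standard error 0.161, adjusted p = 0.0772) did not pass. The direction of dre4 was thus the same in both probe sets, and its call rests on one of them.

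The H3-H4 chaperone gene asf1 changed about as much as dre4. Its values were 7.23, 7.06 and 7.04 in the nau glands and 8.23, 8.67 and 8.62 in the H1 glands. The H1 arrays were all higher, with array a the lowest of them. The log2 change was 1.40 (standard error 0.122, adjusted p = 1.34e-05), a 2.64-fold increase.

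Nlp, whose product decondenses sperm chromatin in Drosophila, read 11.32, 11.06 and 10.81 in the nau glands and 11.88, 11.85 and 11.98 in the H1 glands. The arrays did not overlap and the log2 change was 0.84 (standard error 0.124, adjusted p = 0.000441), or 1.79-fold. Nap1, a chaperone of H2A and H2B, went from 11.22, 11.13 and 10.76 to 11.60, 11.46 and 11.54, again with no overlap. Its log2 change was 0.50 (standard error 0.120, adjusted p = 0.00812), or 1.41-fold. Both genes were already far above background in the nau glands.

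The HIRA complex moved in part. The gene yem encodes the ubinuclein-like partner of HIRA, which is needed with it for H3.3 deposition on the sperm-derived chromosomes of the fly egg. It read 7.29, 7.03 and 7.00 in the nau glands and 5.91, 6.43 and 6.28 in the H1 glands, with every H1 array lower. The log2 change was -0.90 (standard error 0.143, adjusted p = 0.000685), a 1.87-fold lower level. The other yem probe set read 6.66, 6.10 and 6.73 against 5.87, 5.71 and 5.66, also without overlap, and changed by -0.75 (standard error 0.155, adjusted p = 0.00347). Both probe sets therefore passed in the same direction. Hira itself, the scaffold of the complex, read 7.41, 7.09 and 7.36 in the nau glands and 7.13, 7.27 and 7.16 in the H1 glands. These ranges overlapped, and the log2 difference of -0.10 (95% interval -0.33 to 0.13, adjusted p = 0.457) did not pass.

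The CAF-1 genes differed little between the gland groups. Caf1-180, the large subunit, read 6.76, 6.35 and 6.30 in the nau glands and 6.35, 6.42 and 6.22 in the H1 glands, and its difference of -0.14 (95% interval -0.43 to 0.14, adjusted p = 0.403) did not pass. Caf1-105 read 5.62, 5.51 and 5.33 against 5.64, 5.82 and 5.80, a narrow separation. Its log2 change of 0.27 (standard error 0.0954, adjusted p = 0.0493) lay just inside the threshold. The call of Caf1-105 was lost without gland nau array b or c or gland H1 array b or c, with adjusted p from 0.0841 to 0.138. It was also lost without any 1 of the 4 Kc arrays. There the gland change stayed at 0.27, and only the spread shared by the groups was altered. The sign of Caf1-105 turned under quantile normalization. Over 19 alternative settings its adjusted p ran from 0.0252 to 0.377, and 6 of them passed. Caf1-55, a WD-repeat protein that also sits in NURF, Polycomb and retinoblastoma family complexes, read 9.95, 9.95 and 9.81 in the nau glands and 9.72, 9.51 and 9.55 in the H1 glands. The H1 arrays were all lower, with a log2 change of -0.31 (standard error 0.0898, adjusted p = 0.0212), or 1.24-fold. This call was lost without gland nau array a or b or gland H1 array b or c, with adjusted p from 0.0551 to 0.0703, and when glands were fitted alone (adjusted p = 0.0504).

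**Figure D2:**
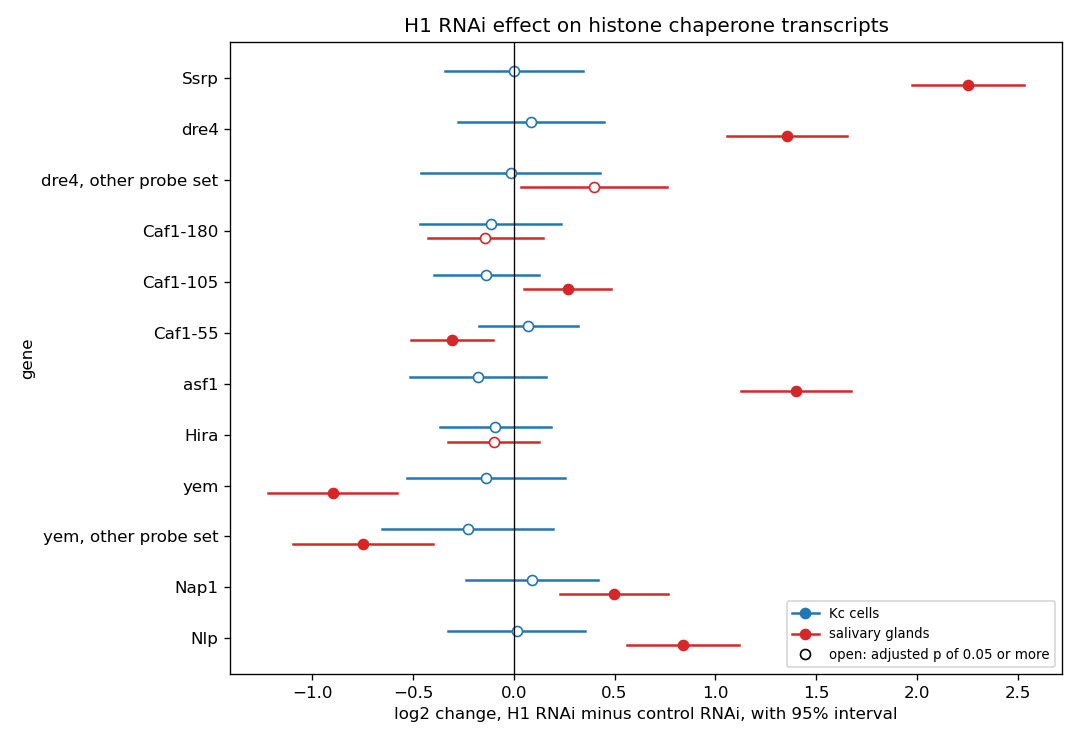
Log2 change with H1 RNAi against control RNAi for the 12 chaperone probe sets, with limma 95% intervals, in Kc cells (blue) and salivary glands (red). Filled points have an adjusted p under 0.05. The Kc points lie between -0.23 and 0.09 and are open, while the gland points reach from -0.90 for yem to 2.25 for Ssrp.

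Other measurements moved with the gland groups. The counts below stand against 23.6% of the named genes called in each direction in glands. Among 12 genes fixed as markers of mitotic cells 7 were measured, and 7 of 7 rose in the H1 glands, or 6 of 7 without array a. Their summed intensity was 155 to 200 in the nau glands, 417 to 601 in the H1 glands and 5946 to 6417 in Kc cells with H1 RNAi. None had a mean at background in the nau glands, but several lay close to the level of 3.55. Their means there ran from 3.92 (thr), 3.96 (fzy) and 3.99 (borr) to 5.81 (Cap-G). Of 10 haemocyte markers 7 rose and 1, Pxn (-1.15), fell, with and without array a. Their summed intensity was 2654 to 3134 in the nau glands and 3602 to 4274 in the H1 glands, and none lay at background. Most of the nau gland sum was srp and crq. In the nau and H1 glands srp averaged 10.64 and 10.81, which did not pass (adjusted p = 0.243), and crq 9.17 and 9.61. Of 8 measured gland markers 8 fell, and their summed intensity was 21726 to 24198 in the H1 glands. The part of other cells in the chaperone changes was not tested, and in bulk samples fewer cells of a type cannot be told apart from less RNA per cell.

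The shares of called markers of the other cell types rest on 3 to 6 genes each. Of 5 measured fat body markers 3 rose and 1 fell, or 2 and 1 without array a. Their summed intensity was 50784 to 54030 in the nau glands and 57302 to 59372 in the H1 glands, with none at background. For muscle 1 of 3 measured markers rose (80 to 146 against 106 to 241, none at background). For neurons and glia 2 of 5 rose and 1 fell, with and without array a, and repo lay at background in the nau glands. Their sum was 82 to 86 in the nau glands and 482, 115 and 147 in H1 arrays a, b and c. For imaginal cells 2 of 6 rose and 1 fell (257 to 335 against 438 to 550), with nub, dac and esg at background in the nau glands. Most of that sum was bab2, at 7.92 in the nau glands and 8.59 in the H1 glands, which was also high in Kc cells (8.55 with GFP dsRNA and 9.56 with H1 dsRNA). The excess of 3′ over 5′ signal in control transcripts, which grows with RNA degradation or incomplete labelling, was also higher in each H1 gland array than in each nau gland array. For actin it was 1.91 ± 0.10 in the nau glands and 2.29 ± 0.18 in the H1 glands (SD, n = 3), for GAPDH 2.13 ± 0.05 against 2.53 ± 0.09, and for eIF-4a 2.17 ± 0.09 against 2.48 ± 0.07. Its part in the chaperone values was not tested.

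In Kc cells none of the 10 chaperone genes passed in limma, where 5.04% of the named genes did, among them the haemocyte markers He (-3.46) and eater (-2.02), 2 of the 10 fixed markers. At an unadjusted p under 0.05 the count was also 0 of 10, and the 19 alternative settings gave 0 calls. Log2 differences ran from -0.18 for asf1 to 0.09 for Nap1, with a median of -0.05 against -0.03 for the named genes. The H1 arrays were both higher than the GFP arrays for 1 gene and both lower for 2, and overlapped for 7, while 24.8% of the named genes separated upward and 34.5% downward.

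The FACT genes stood at the same height in both Kc groups. Ssrp read 10.17 and 9.98 with GFP dsRNA and 10.14 and 10.02 with H1 dsRNA (difference -0.0003, 95% interval -0.34 to 0.34, adjusted p = 1). For dre4 the values were 11.09 and 10.89 against 11.05 and 11.09 (difference 0.08, interval -0.28 to 0.45). The arrays of both groups overlapped for each of these genes.

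Of the genes that changed most in glands, asf1 read 8.52 and 8.67 with GFP dsRNA and 8.44 and 8.40 with H1 dsRNA (difference -0.18, interval -0.52 to 0.16, adjusted p = 0.722). Nlp read 11.95 and 11.82 against 11.83 and 11.96 (difference 0.01, interval -0.33 to 0.35), and yem 9.01 and 8.79 against 8.80 and 8.71 (difference -0.14, interval -0.53 to 0.25). The asf1 arrays separated by less than 0.1 and those of Nlp and yem overlapped. Caf1-180 read 10.40 and 10.24 against 10.26 and 10.15, Caf1-105 8.21 and 8.18 against 8.10 and 8.02, and Caf1-55 12.29 and 12.16 against 12.36 and 12.24. Hira read 8.26 and 8.32 against 8.27 and 8.12, and Nap1 12.03 and 11.91 against 12.08 and 12.05. Their intervals lay between -0.46 and 0.42, and changes within them are not excluded. The intervals use a spread estimated jointly with the gland arrays, which varied more, so their width does not measure the Kc arrays alone.

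Whether the response to H1 RNAi differed between glands and Kc cells was tested as the gland change minus the Kc change. Of the 10 genes 4 had a higher gland response and 1 a lower one, where 17.2% and 14.7% of the named genes did. The difference was 2.25 for Ssrp (standard error 0.197, adjusted p = 4.36e-05), 1.58 for asf1 (0.193, adjusted p = 0.00031), 1.27 for dre4 (0.209, adjusted p = 0.00163), 0.82 for Nlp (0.196, adjusted p = 0.0121) and -0.76 for yem (0.225, adjusted p = 0.0336). Nap1 (0.41, 95% interval -0.02 to 0.83, adjusted p = 0.157), Caf1-105 (0.40, adjusted p = 0.0819) and Caf1-55 (-0.38, adjusted p = 0.0816) did not pass, nor did Caf1-180 (-0.03) or Hira (-0.01). The differences of Ssrp and asf1 passed under each of the 18 alternatives. That of yem passed under 11 of 18 and was lost without any 1 of the Kc arrays or gland nau array a, with adjusted p from 0.0528 to 0.139, and that of Nlp was lost without Kc GFP array a (adjusted p = 0.0574) or Kc H1 array a (adjusted p = 0.0576). With the other probe sets of dre4 and yem, neither passed (0.41, adjusted p = 0.293, and -0.52, adjusted p = 0.162).

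The control samples themselves differed in these genes. In the nau glands 10 of the 10 genes were lower than in the GFP-treated Kc cells, where 35.4% of the named genes were lower. The differences were largest for dre4 (-4.02, standard error 0.148, 16.2-fold, or -1.88 with its other probe set) and Caf1-180 (-3.85, standard error 0.142, 14.4-fold). They were -2.71 for Caf1-105, -2.40 for Ssrp, -2.32 for Caf1-55, -1.79 for yem and -1.49 for asf1. The smallest were those of Hira (95% interval -1.25 to -0.75), Nap1 (-0.94) and Nlp (-0.82, adjusted p = 0.000578). The system, the control RNAi and the way the RNAi was delivered cannot be told apart here. The sources used here do not say whether cells and glands were normalized together. The excess of 3′ over 5′ signal differed between these control samples too. With GFP dsRNA it averaged 0.44 for actin, 0.83 for GAPDH and 0.56 for eIF-4a. The nau glands averaged 1.91, 2.13 and 2.17. Its part in these differences was not tested.

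With H1 RNAi in both systems, 7 of the 10 genes were lower in glands than in Kc cells (37.5% of the named genes) and 3 did not pass, a comparison added after the data were seen. It shares arrays with the comparisons above and is no independent evidence. The 3 genes were Ssrp, with 9.93 ± 0.04 (SD, n = 3) in the H1 glands and 10.08 ± 0.09 (n = 2) in the H1 Kc cells (95% interval of the difference -0.46 to 0.17), Nlp with 11.90 ± 0.07 and 11.90 ± 0.09 (-0.31 to 0.32), and asf1 with 8.51 ± 0.24 and 8.42 ± 0.03 (-0.21 to 0.40). Under quantile normalization asf1 was higher in the H1 glands (0.37, adjusted p = 0.0359). For these 3 genes the order of levels had the nau glands lowest and the other 3 groups within 0.2 of each other. The gland level minus the Kc level was -2.75 for dre4, -3.88 for Caf1-180, -2.70 for Caf1-55 and -2.31 for Caf1-105, with the Kc groups highest. It was -2.55 for yem, -1.01 for Hira and -0.53 for Nap1. The other probe sets gave smaller gaps, -1.47 for dre4 and -1.89 for yem. The excess of 3′ over 5′ signal again differed between the systems. With H1 dsRNA it averaged 0.27 for actin, 0.58 for GAPDH and 0.58 for eIF-4a. The H1 glands averaged 2.29, 2.53 and 2.48. Its part in these gaps was not tested.

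Ratios between subunits of the same complex were also compared in glands. The ratio of Ssrp to dre4, taken per array, was 0.90 higher on the log2 scale in the H1 glands, with SDs of 0.046 and 0.027 in the H1 and nau arrays. The ratio of yem to Hira was -0.80 in the same comparison (SD 0.21 and 0.16), that of Caf1-105 to Caf1-180 0.41 and that of Caf1-105 to Caf1-55 0.57. The arrays of both gland groups did not overlap for these 4 ratios, and the exact two-sided permutation p was 0.1 for each, the smallest that 3 arrays against 3 allow (0.125 after Benjamini-Hochberg over 5 ratios). None therefore passed. The ratio of Caf1-180 to Caf1-55 overlapped (0.17, exact permutation p = 0.4). The gland changes of the 2 dre4 probe sets differed by 0.96, about as much as the ratio of Ssrp to dre4, which was 1.86 with the other dre4 probe set. With the other yem probe set yem to Hira was -0.65. After quantile normalization Caf1-105 to Caf1-55 fell to 0.15 and overlapped, and Caf1-180 to Caf1-55 was -0.19. In Kc cells the 5 ratios differed by -0.21 to -0.02, and 2 arrays against 2 cannot give a p under 0.333. The Kc arrays also did not overlap for Ssrp to dre4, Caf1-105 to Caf1-55 and Caf1-180 to Caf1-55. These ratio tests were added after the data were seen.

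**Figure D3:**
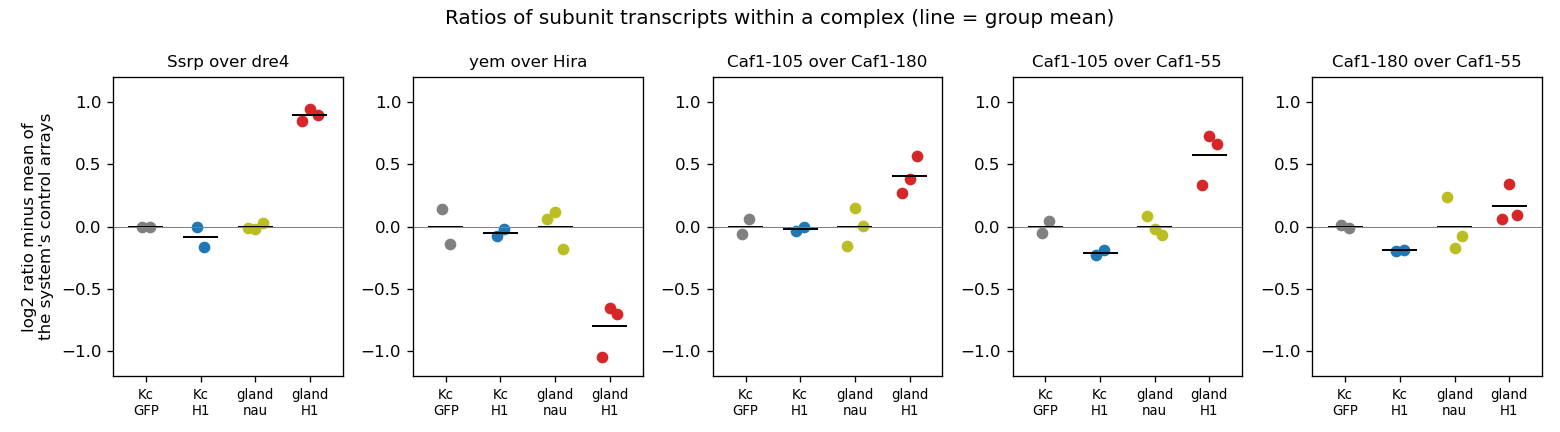
Log2 ratio between subunit transcripts of FACT, the HIRA complex and CAF-1 in each array, set to 0 at the mean of the system's control arrays, with a line at each group mean. In the H1 glands Ssrp over dre4 lies near 0.90 and yem over Hira near -0.80, apart from the nau glands. The Kc groups stay within 0.25 of 0, though their arrays also do not overlap for Ssrp over dre4, Caf1-105 over Caf1-55 and Caf1-180 over Caf1-55.

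Related genes were followed in 3 lists. Among other histone chaperones 11 of 13 genes were measured, of which 2 rose and 4 fell in glands (median -0.05), where 23.6% of the named genes were called in each direction. Without gland H1 array a, 1 rose and 3 fell. In Kc cells 1 passed and 3 had an unadjusted p under 0.05. The largest change was that of Nasp, whose product is a chaperone of H3 and H4 and, in mammals, of linker histones. It read 11.22, 11.31 and 11.55 in the nau glands and 9.46, 9.16 and 8.90 in the H1 glands, a change of -2.19 (standard error 0.145), while the Kc difference was -0.12 (adjusted p = 0.894). Every H1 gland array was thus below every other array of the series. Daxx, which encodes the fly relative of an H3.3 chaperone, fell by 0.80 in glands and rose by 0.42 in Kc cells (adjusted p = 0.0479), the call of this list in Kc cells. Fkbp39, a nucleoplasmin-like prolyl isomerase gene, rose by 0.75 in glands.

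Among 15 partners of Caf1-55 in other complexes 4 rose and 6 fell in glands (median -0.26), the risers near the share of 23.6% of the named genes called in each direction, and none passed in Kc cells in limma, with 2 at an unadjusted p under 0.05. The largest changes were those of E(bx) of NURF (-0.96), mip120 of the Myb and retinoblastoma family complex (-0.93) and MTA1-like of a deacetylase complex (-0.62). The list held calls in both directions, also without gland H1 array a, where 3 rose and 6 fell.

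Among the genes of histone supply and assembly 14 of 19 were measured, of which 6 rose and 1 fell in glands (median 0.32), against 23.6% of the named genes in each direction, or 7 and 2 without gland H1 array a, and none passed in Kc cells, with 0 at an unadjusted p under 0.05. Lsm11, part of the U7 particle that cuts histone pre-mRNA, rose from 4.68, 4.83 and 4.87 in the nau glands to 6.21, 6.60 and 6.49 in the H1 glands (1.64, standard error 0.111). PCNA, the sliding clamp to which CAF-1 binds, rose by 1.49. Tlk, whose kinase modifies Asf1, fell by 1.52, from 8.60, 8.50 and 8.75 to 7.25, 6.80 and 7.26. Tlk lay at background in Kc cells.

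**Figure D4:**
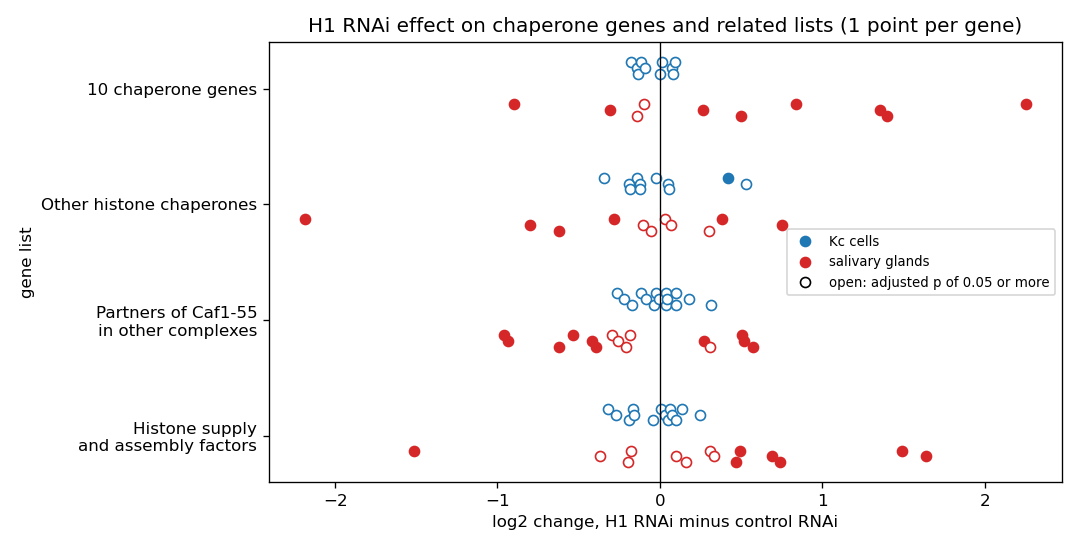
Log2 change with H1 RNAi of the 10 chaperone genes and of the genes in 3 related lists, 1 point per gene, in Kc cells (blue) and glands (red), filled where the adjusted p is under 0.05. Gland points spread to both sides, with Nasp (-2.19) lowest and Ssrp (2.25) highest, whereas 1 Kc point, Daxx, is filled.

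The genes on either side of the 10 chaperone genes, taken from the gene order of RefSeq, changed in both directions or did not pass. Of 20 direct protein-coding neighbours, 4 rose, 5 fell and 11 did not pass in glands, against 23.6% of the named genes in each direction. The neighbours of Ssrp were CG5539 (-0.38, adjusted p = 0.0159) and CG5543 (-0.12, adjusted p = 0.304), and those of asf1 were l(3)76BDm (-0.95) and ms(3)76Cc (0.05, adjusted p = 0.705). Nlp lies beside Nph, a further nucleoplasmin-like gene, which rose by 0.38 in glands (adjusted p = 0.0287).

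Likeness of pattern was measured as the root mean square difference between log2 profiles over the 10 arrays, each centred on its mean, among 9111 genes above background. The nearest genes to dre4 were RPA2 (0.139), which encodes a subunit of the single-strand DNA binding complex of replication, and SMC6 (0.153), of a DNA repair complex related to cohesin. Nap1 was nearest to the ribosome assembly gene Tsr1 (0.0598), Hira to bin3 (0.0617) and the insulator protein gene CTCF (0.065), and Caf1-105 to Rcd5 (0.106) and the mitochondrial ribosomal protein gene mRpL39 (0.109). Caf1-180 was nearest to vilya (0.139) and dgt6 (0.161), and yem to Pax (0.148) and SelR (0.152). For Ssrp they were CG31886 (0.165) and CG5800 (0.175), for asf1 CG1582 (0.0869) and CG14270 (0.125), for Nlp CG2875 (0.0748) and CG34200 (0.0898), for Caf1-55 lncRNA:CR43242 (0.0927) and CG4230 (0.0977), and for Nap1 also CG7519 (0.0803). None of the nearest genes was another of the 10 chaperone genes. With 2 nearest genes each among 9111, this says little on whether the chaperone genes share a pattern.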

How the data were processed

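The values the authors deposited are linear intensities, 1 for each probe set on each array, and the submitters' processing notes name RMA without a version. The background step, the scale between arrays and joint or separate treatment of cells and glands are not given in the sources used here. Array medians of log2 intensity were 4.10 to 4.30 and the highest values 14.09 to 14.34, and no values were centred per gene. The 183 Affymetrix control probe sets of 18952 were left out of the tests. Of the 18769 others, 13647 carried 1 symbol, 402 several and 4720 none. Symbols were updated through gene numbers in RefSeq (11894 of 11983 entries matched, assembly Release 6), and no coordinates or sequences are given.

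Log2 intensities of the 10 arrays were fitted with separate means for the 4 groups (limma 3.58.1 under R 4.3.3, moderated with eBayes), with Benjamini-Hochberg adjustment over all 18769 probe sets within each of 5 contrasts. The fit was tested on simulated data in which all groups had the same spread. That test does not cover the wider spread of the gland arrays. Named genes are the 11982 genes with a symbol of their own, the base of each background share. The genes described singly are the 10 chaperone genes, the 2 nearest profiles of each, and the 3 largest gland changes of each related list; the neighbouring genes, Nph and single markers were picked after their values were seen. Members and lists were chosen with earlier results of these data known. Spt6, Tonsl, the H3.3 genes, Acf and the Chrac genes are not analysed here. Alternatives were each array left out, each system alone, other normalizations, a filter on low values, a pseudocount of 16, another variance prior, the replicate block and other probe sets. The number of arrays limits the precision.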

Additional observations from a re-analysis of the deposited data

Results flagged for a closer look

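The response to H1 RNAi differed between glands and Kc cells for 5 of the 10 chaperone genes by the test of the difference itself (limma, gland change minus Kc change). Of these 4 were higher and 1 lower, where 17.2% and 14.7% of the named genes were. The log2 difference was 2.25 for Ssrp, 1.58 for asf1, 1.27 for dre4, 0.82 for Nlp and -0.76 for yem. With the other probe sets of dre4 and yem, neither passed (adjusted p = 0.293 and 0.162). The difference of yem was also lost without gland nau array a (adjusted p = 0.0599). Signals outside the gene measurements also separated the gland groups. The excess of 3′ over 5′ signal in control transcripts was higher in the H1 glands by 0.38 for actin, 0.41 for GAPDH and 0.31 for eIF-4a, with no overlap of arrays and an exact two-sided permutation p of 0.1 for each, the smallest that 3 arrays against 3 allow. Groups of 2 or 3 arrays were too small to test single arrays as outliers.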

How the results depend on the processing

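Of 920 values of a chaperone gene under an alternative, 883 kept their call, 28 lost it, 8 gained one and 1 turned, Caf1-105 in glands under quantile normalization (-0.15, adjusted p = 0.377); 24 values without a call changed sign and are counted among the 883. The calls of Ssrp, asf1, Nlp, Nap1 and yem in glands held under each of 19 alternatives. Not all of these can move a gland change. Leaving out Kc arrays, fitting glands alone, another variance prior and the replicate block kept each gland change and altered only its test. The Kc changes likewise did not move when gland arrays were left out, and such values count among the 920. Probe sets called in Kc cells numbered 771 (70.4% higher), 274 to 916 with 1 array left out, 2152 with Kc cells fitted alone (59.2% higher), 1244 with a pseudocount of 16 (57.1% higher) and 447 with the replicate block. Chaperone genes whose response differed between systems numbered 5, 3 to 6 with 1 array left out and 3 with the other probe sets of dre4 and yem, and where a Kc group had 1 array left it was assumed to vary like the other groups. With glands fitted alone 6 of the 8 gland calls were left, without Caf1-55 and Caf1-105. Under quantile normalization 9 chaperone genes passed in glands, with Caf1-180 (-0.48) and Hira (-0.27) added as lower. The shares of named genes called under the alternatives are not given here, so these counts have no background share beside them. Centring arrays on their medians moved the median of all probe sets in H1 glands against H1 Kc cells from -0.07 to -0.20. Arrays with the same letter did not deviate together (r from -0.0722 to 0.0892 in glands), so the letters are not taken as pairs, and the replicate block left 7 gland calls and 4 of the differences.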
